A study of Mus musculus with 7 samples.

Results

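The receptor and cytotoxic granule genes of natural killer (NK) cells were compared between bleomycin-challenged mouse lungs without (BLM, 4 mice) and with hyperbaric oxygen exposure (BLM+HBO, 3 mice). A gene was a member if it was protein-coding in GENCODE vM21 and its symbol began with Klr, a letter from a to k and a digit, or was Gzm with a letter from a to n, or was Prf1, Nkg7, Ncr1, Eomes, Tbx21, Il2rb, Cd7 or Fasl. This gave 44 members of the 55401 genes in the count table, made up of 26 Klr genes, 10 granzyme genes and the 8 others. Of the 44, 32 had 10 or more reads in 3 mice, and these were the same 32 that passed the filter on low counts and were tested. Membership was chosen by gene name, and the 32 were selected on their read counts in these same mice, so a gene high in 1 group only could pass through that group. The set was also taken up with the outcome of the comparison known. The counts over members below are therefore a description. Klri1, Fasl, Ncr1, Klra3, Klra4, Klra7, Klra8 and Klra9 were nearest to the limit from above, with 10 reads in 4 mice each. Gzmc, with 10 reads in 2 mice, and Klra1, with 10 reads in 1 mouse, were nearest from below.

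All 7 mice were male C57BL/6 mice of 6 to 8 weeks given bleomycin, an anticancer antibiotic whose lung injury is followed by fibrosis. The BLM+HBO mice were exposed to oxygen at 2.5 ATA for 90 min per day on 14 days from day 7. Whether the BLM mice also spent time in the chamber without pressurised oxygen, as in the sample records, or were left untreated, as in the supplementary methods, was not settled here. Lung tissue was collected on day 21, and each mouse gave 1 library. No mouse without bleomycin was part of this comparison, so the values show how the exposed and unexposed injured lungs differed and not how either compared with a healthy lung.

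NK cells are innate lymphocytes that kill infected or transformed cells without prior priming. Their killing is set by a balance of germline-encoded receptors. In mice these are mainly C-type lectin-like proteins encoded by the Klr genes, and inhibitory members read class I molecules of healthy cells while activating members read stress-induced or viral ligands. On activation, NK cells and cytotoxic T cells release granules in which perforin forms a pore and granzymes, a family of serine proteases, enter the target cell and start its death. The lung is among the tissues richest in NK cells, most of them mature cells of the circulation. Many of these genes are also expressed by CD8 T cells, innate-like T cells and other innate lymphocytes. In RNA from whole tissue, fewer cells of a type and less RNA per cell cannot be told apart.

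The counts summed to between 18157161 and 26365969 reads per mouse, of which the 44 members took between 974 (BLM 2) and 4985 (BLM+HBO 1). Levels are given as CPM, the reads of a gene scaled to the size of its library after TMM normalization, and differences as log2 fold changes of BLM+HBO over BLM from edgeR's quasi-likelihood test over 17465 genes. A gene is called where it passed the thresholds of the study, a fold change larger than 1.5 at an unadjusted P below 0.05. They were passed by 6.29% of all genes tested, 3.40% in the higher and 2.89% in the lower direction. By edgeR, no gene had a Benjamini-Hochberg adjusted P below 0.05, against 1861 genes with an unadjusted P below 0.05, or 0.00% against 10.7%, so every call below holds only at the unadjusted thresholds. The adjusted P of the members lay between 0.423 and 0.991, with all 15 called members between 0.423 and 0.469. Fold changes of members in all mice are given with their SE and 95% interval, which excludes 0 where the unadjusted P was below 0.05.

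Cytotoxic effector genes, NK receptors and both T-box factors were among the members called higher in BLM+HBO, and most of these calls were lost without BLM+HBO 1. Of the 32 tested, 31 had a log2 fold change above 0, against 51.2% of all genes tested, and 22 were more than 2-fold higher, against 2.30%. In all, 15 of the 32 were called higher and 0 lower. The called members were the proteases Gzma and Gzmb, the pore protein Prf1, the receptors Ncr1, Klrb1c, Klrc2, Klrd1, Klre1, Klrk1, Klra3, Klra4, Klra7 and Klra9, and the transcription factors Eomes and Tbx21. The median log2 fold change was 1.15, from -0.02 for Klrb1a to 2.43 for Klra9, while the median of all genes tested was 0.0071. DESeq2 called 18 members higher, against 3.68% of all genes, and gave an adjusted P below 0.05 to Klrb1c and Klrk1, against 0.704% of all genes and 0.286% in the higher direction. Their adjusted P by DESeq2 was 0.0165 and 0.0367, within a range over all settings of 0.00994 to 0.802 for Klrb1c and of 0.0163 to 0.802 for Klrk1, and all 3 BLM+HBO mice lay above all 4 BLM mice for both genes.

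**Figure D1:**
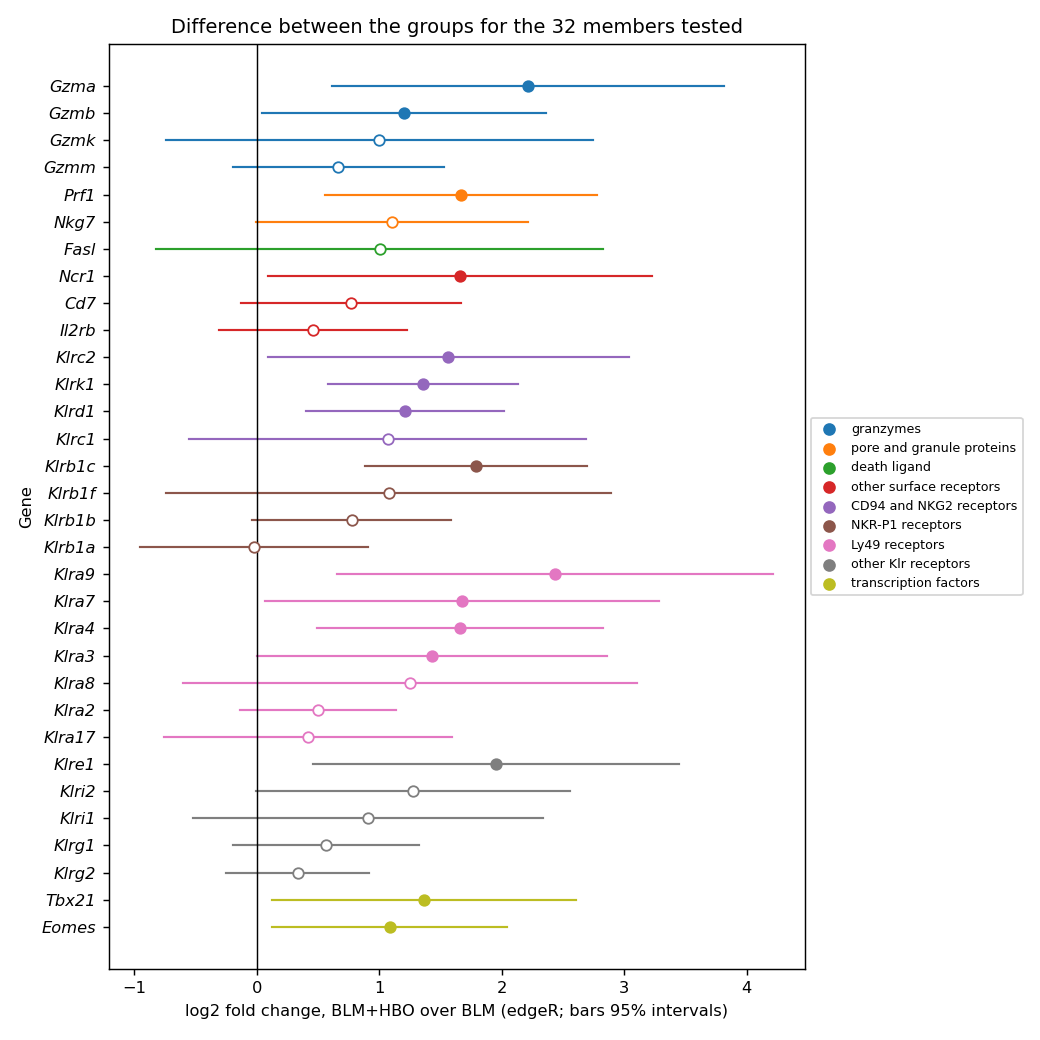
Log2 fold change of BLM+HBO over BLM (x axis) for the 32 members tested (y axis), with bars for the 95% interval, colour for the role of the gene and filled points for members past the thresholds of the study. All points but that of Klrb1a lie right of 0, and the 15 filled points lie between 1.08 (Eomes) and 2.43 (Klra9).

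Gzma was the granule effector with the most reads. Gzma (ENSMUSG00000023132.8, chromosome 13, 113093825 to 113100981), a tryptase-like granzyme abundant in NK cells, was at 2.09, 2.2, 4.23 and 10.6 CPM in the BLM mice and at 48.7, 8.71 and 9.49 CPM in the BLM+HBO mice. BLM+HBO 1 stood far above all others, and BLM 4 lay above BLM+HBO 2 and BLM+HBO 3, so the groups overlapped. The group means went from 4.78 ± 4.0 CPM (SD, n = 4) to 22.3 ± 22.9 CPM (SD, n = 3). The log2 fold change was 2.21 (SE 0.71, 95% interval 0.61 to 3.81). Gzmb (ENSMUSG00000015437.5, chromosome 14, 56258838 to 56262260), which cleaves caspases in the target cell, was at 1.1, 1.63, 2.03 and 3.27 CPM in the BLM mice and at 8.84, 2.78 and 2.36 CPM in the BLM+HBO mice. BLM 4 lay above BLM+HBO 2 and BLM+HBO 3 here too, and the log2 fold change was 1.2 (SE 0.52, 95% interval 0.042 to 2.36). Within each mouse the reads of Gzma exceeded those of Gzmb, and the ratio of their CPM was 1.9, 1.34, 2.08 and 3.24 in the BLM mice and 5.51, 3.14 and 4.02 in the BLM+HBO mice, so that BLM 4 lay among the BLM+HBO mice by this ratio.

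Prf1 (ENSMUSG00000037202.6, chromosome 10, 61297833 to 61304680), which encodes perforin, was at 0.991, 2.03, 1.15 and 2.84 CPM in the BLM mice and at 10.1, 3.25 and 3.52 CPM in the BLM+HBO mice. All 3 BLM+HBO mice lay above BLM 4, and the log2 fold change was 1.67 (SE 0.49, 95% interval 0.56 to 2.78). Nkg7 (ENSMUSG00000004612.9, chromosome 7, 43437073 to 43438249), a granule membrane protein needed for the release of granules, was at 3.74, 2.59, 4.72 and 8.48 CPM in the BLM mice and at 19.5, 6.27 and 5.92 CPM in the BLM+HBO mice. Its groups overlapped, since BLM 4 lay above BLM+HBO 2 and BLM+HBO 3, and its log2 fold change of 1.1 (SE 0.49, 95% interval -0.0028 to 2.21) was not called.

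Gzmk (ENSMUSG00000042385.14, chromosome 13, 113171608 to 113225908), a granzyme better known from memory CD8 T cells, was at 0.826, 0.789, 0.659 and 0.632 CPM in the BLM mice and at 3.3, 1.05 and 0.113 CPM in the BLM+HBO mice. BLM+HBO 1 and BLM+HBO 2 lay above all BLM mice and BLM+HBO 3 below them, and the log2 fold change of 1.0 (SE 0.78, 95% interval -0.74 to 2.75) was not called. Gzmm, a granzyme of innate lymphocytes, had a log2 fold change of 0.67 (SE 0.38, 95% interval -0.19 to 1.53) and was not called. The remaining granzymes form a tandem cluster with Gzmb on chromosome 14 (56117626 to 56262260) and did not reach 10 reads in 3 mice. Gzmc had between 0 and 15 reads per mouse, with the highest count in BLM 3, and Gzme between 0 and 6. Gzmd, Gzmf, Gzmg and Gzmn had 0 reads in all 7 mice, where 0 allows up to 3 reads, or 0.114 to 0.165 CPM per mouse. The 10 granzymes together came to 9.14 ± 4.57 CPM in the BLM mice (SD, n = 4) and 30.7 ± 28.7 CPM in the BLM+HBO mice (SD, n = 3). Fasl (ENSMUSG00000000817.10, chromosome 1, 161780689 to 161788495), the ligand of the death receptor Fas which kills without granules, was at 0.33, 0.395, 0.659 and 1.42 CPM in the BLM mice and at 3.3, 0.814 and 0.225 CPM in the BLM+HBO mice. BLM+HBO 1 was the highest mouse and BLM+HBO 3 the lowest, and the log2 fold change of 1.0 (SE 0.81, 95% interval -0.82 to 2.83) was not called.

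**Figure D2:**
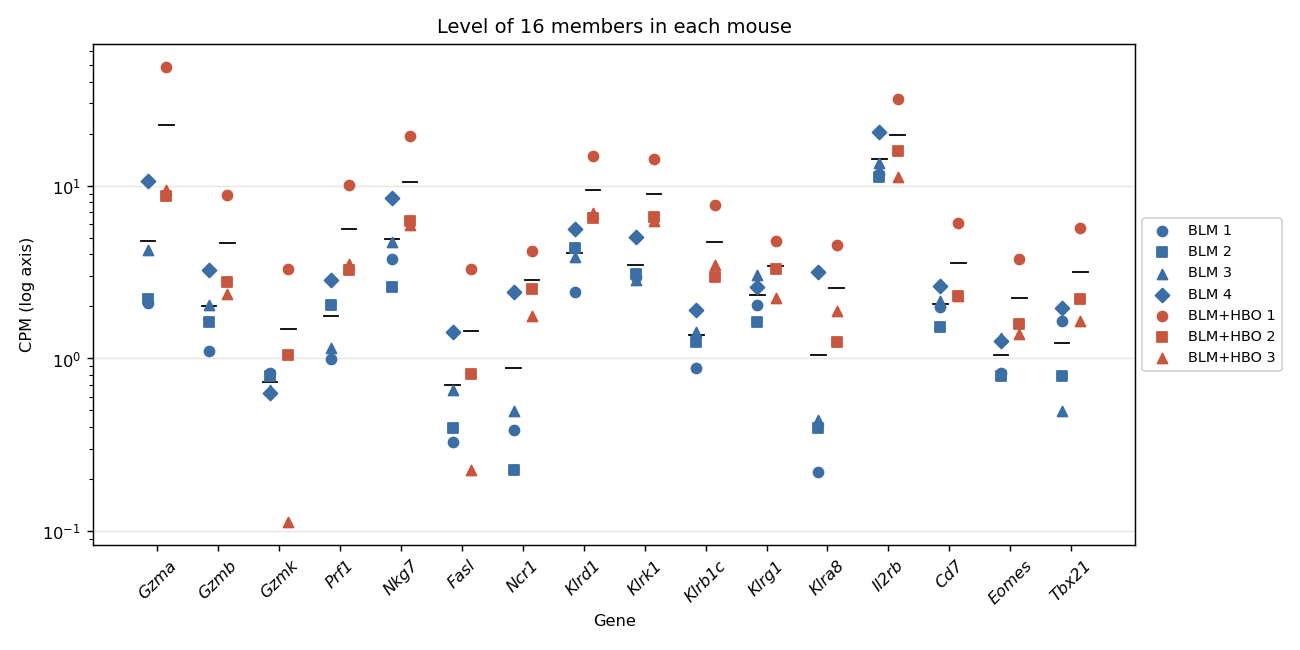
CPM (y axis, log scale) of 16 members (x axis) in each mouse, with a point for each of the 4 BLM (blue) and 3 BLM+HBO (red) mice and a black line at the group mean. BLM+HBO 1 is the highest mouse for each of the 16, and BLM 4 is often the highest BLM mouse, as for Gzma at 48.7 and 10.6 CPM.

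The regulatory sequence of the called genes is shown for 5 of them. The sequences are the 200 bases before the RefSeq start (GRCm38.p6), printed 5′ to 3′ on the strand of the gene for the called effectors Gzma, Gzmb and Prf1, the NK receptor Ncr1 and the receptor Klrk1, the member called with the second smallest P. Capitals mark a match to the Runx motif TGTGGTT on either strand.
Gzma, chr13:113100982-113101181, minus strand: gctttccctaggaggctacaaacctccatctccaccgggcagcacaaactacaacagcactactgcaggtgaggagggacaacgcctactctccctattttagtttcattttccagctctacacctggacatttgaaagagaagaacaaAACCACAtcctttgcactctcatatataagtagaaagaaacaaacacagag
Gzmb, chr14:56262335-56262534, minus strand: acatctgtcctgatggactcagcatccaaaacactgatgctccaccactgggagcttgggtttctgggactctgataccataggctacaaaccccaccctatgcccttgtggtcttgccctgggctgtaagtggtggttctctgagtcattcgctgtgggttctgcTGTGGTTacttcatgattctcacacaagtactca
Ncr1, chr7:4337524-4337723, plus strand: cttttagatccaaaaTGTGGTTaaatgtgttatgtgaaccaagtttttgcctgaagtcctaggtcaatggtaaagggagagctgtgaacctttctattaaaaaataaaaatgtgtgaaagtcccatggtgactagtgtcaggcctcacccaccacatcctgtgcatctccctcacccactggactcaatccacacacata
Klrk1, chr6:129623865-129624064, minus strand: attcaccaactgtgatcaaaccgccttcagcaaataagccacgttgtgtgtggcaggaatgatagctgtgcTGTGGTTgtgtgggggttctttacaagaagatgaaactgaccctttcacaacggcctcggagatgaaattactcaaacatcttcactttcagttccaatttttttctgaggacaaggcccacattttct
Prf1, chr10:61297636-61297835, plus strand: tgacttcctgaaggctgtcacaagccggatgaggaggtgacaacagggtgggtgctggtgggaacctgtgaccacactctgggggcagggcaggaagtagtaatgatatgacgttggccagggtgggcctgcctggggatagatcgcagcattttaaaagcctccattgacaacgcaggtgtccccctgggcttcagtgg
Gzma held a match at -51 to -45 from the RefSeq start, Gzmb at -34 to -28, Ncr1 at -185 to -179 and Klrk1 at -129 to -123, and Prf1 held none. The RefSeq start of Gzmb lies 74 bases upstream of its start in the count table, so positions for this gene depend on the start chosen. In 250 bases before the start, the motif was found in 11 of the 39 members with a RefSeq window (28.2%) and in 4.46% of 27025 genes. Of these 11, 5 had 10 reads in 3 mice, namely Gzma, Gzmb, Klre1, Klrk1 and Ncr1, and the others were Klra1 and the cluster genes Gzmc to Gzmg, which arose by tandem duplication and share sequence. The T-box motif AGGTGTGA, the letters bound by Eomes and Tbx21, was found in 1 of the 39 members (Nkg7) and in 1.14% of genes. Its core GGTGTGA, which lies inside it, was found in 2 (Gzmk and Nkg7) and in 3.31%. The Ets motif ACAGGAAG was found in 1 member (Klra1) and in 2.79% of genes, the STAT motif TTCNNNGAA in 4 members and 7.17%, and TATAAA in 9 members and 13.0%. Both strands were searched. A match is a run of letters and not a shown binding site, and the windows of Cd7, Il2rb, Klrd1, Klrg1 and Klri2 were not in the table.

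Among the receptors outside the Klr family, Ncr1 (ENSMUSG00000062524.4, chromosome 7, 4337724 to 4345164), the NKp46 receptor that marks NK cells and related innate lymphocytes across species, was at 0.386, 0.225, 0.494 and 2.42 CPM in the BLM mice and at 4.21, 2.54 and 1.76 CPM in the BLM+HBO mice. The 3 lowest BLM mice lay well below every BLM+HBO mouse, and BLM 4 lay within the BLM+HBO range. The log2 fold change was 1.66 (SE 0.7, 95% interval 0.092 to 3.23). Il2rb (ENSMUSG00000068227.9, chromosome 15, 78479256 to 78495271), the receptor chain through which IL-2 and IL-15 act and which T cells share, was at 11.6, 11.2, 13.4 and 20.5 CPM in the BLM mice and at 31.6, 15.9 and 11.2 CPM in the BLM+HBO mice. BLM 4 lay above BLM+HBO 2 and BLM+HBO 3, and the log2 fold change of 0.46 (SE 0.34, 95% interval -0.31 to 1.23) was not called. Cd7 (ENSMUSG00000025163.6, chromosome 11, 121036747 to 121039418), a surface protein of T and NK cells, was at 1.98, 1.52, 2.14 and 2.63 CPM in the BLM mice and at 6.07, 2.3 and 2.29 CPM in the BLM+HBO mice. BLM 4 again lay above BLM+HBO 2 and BLM+HBO 3, and the log2 fold change of 0.77 (SE 0.4, 95% interval -0.13 to 1.67) was not called.

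The CD94 and NKG2 receptors are encoded side by side on chromosome 6. Klrd1 (ENSMUSG00000030165.16, chromosome 6, 129591782 to 129598775), which encodes CD94, the shared partner of the NKG2 chains, was at 2.42, 4.34, 3.84 and 5.63 CPM in the BLM mice and at 14.8, 6.46 and 6.97 CPM in the BLM+HBO mice. No BLM+HBO mouse overlapped with the BLM mice, and the log2 fold change was 1.21 (SE 0.36, 95% interval 0.4 to 2.02). Klrk1 (ENSMUSG00000030149.15, chromosome 6, 129610323 to 129623864), which encodes the activating receptor NKG2D for stress-induced ligands, was at 2.97, 3.1, 2.85 and 5.05 CPM in the BLM mice and at 14.2, 6.56 and 6.22 CPM in the BLM+HBO mice. Its groups did not overlap, although BLM 4 lay nearer to BLM+HBO 3 than to the other BLM mice. The log2 fold change was 1.36 (SE 0.35, 95% interval 0.58 to 2.13). Klrc2 (ENSMUSG00000052736.15, chromosome 6, 129647496 to 129660689), the activating partner of CD94, was at 0.441, 0.282, 0.933 and 1.05 CPM in the BLM mice and at 4.26, 0.814 and 1.05 CPM in the BLM+HBO mice. BLM+HBO 1 lay far above the rest and BLM+HBO 2 below BLM 3 and BLM 4, and the log2 fold change was 1.56 (SE 0.66, 95% interval 0.09 to 3.04). Klrc1, the inhibitory partner, had a log2 fold change of 1.07 (SE 0.72, 95% interval -0.55 to 2.69) and was not called. Klrc3 had 15 reads over all mice and was not tested. The Klrc genes are near copies, and 14.6% of the 100-base windows of Klrc1 and 7.09% of those of Klrc2 also occur in another Klrc gene. Reads there could map to several places and be left out by the counting, and how many were was not examined. Summed into 1 feature, the 3 Klrc members had a log2 fold change of 1.3 (SE 0.67, adjusted P = 0.518).

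Of the NKR-P1 receptors, which bind Clec2 proteins encoded beside them, Klrb1c (ENSMUSG00000030325.16, chromosome 6, 128778485 to 128789215), the classical NK cell marker of C57BL/6 mice, was at 0.881, 1.24, 1.43 and 1.9 CPM in the BLM mice and at 7.77, 2.97 and 3.49 CPM in the BLM+HBO mice. All BLM+HBO mice lay above all BLM mice. The log2 fold change of 1.79 (SE 0.41, 95% interval 0.88 to 2.7) had the smallest P of the members. In its exons 13.9% of bases also belong to Gm44511, and reads there were not counted for either gene. Klrb1b, an inhibitory NKR-P1 receptor that shares 26.9% of its exon bases with Gm44511, had a log2 fold change of 0.78 (SE 0.36, 95% interval -0.038 to 1.59) and was not called. Klrb1f was at 1.08 (SE 0.81, 95% interval -0.74 to 2.9) and not called, and Klrb1a, at -0.02 (SE 0.41, 95% interval -0.95 to 0.91), was the 1 tested member below 0. Klrb1 did not reach 10 reads in any mouse.

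The Ly49 receptors, encoded by the Klra genes, are the mouse receptors for class I molecules and are each expressed on a subset of NK cells. Klra4 (ENSMUSG00000079852.4, chromosome 6, 130043731 to 130067271), which encodes the activating Ly49D, was at 0.11, 0.451, 0.494 and 0.737 CPM in the BLM mice and at 1.92, 1.0 and 1.39 CPM in the BLM+HBO mice. Klra9 (ENSMUSG00000033024.16, chromosome 6, 130178675 to 130193112), the inhibitory Ly49I, was at 0.11, 0, 0.275 and 0.737 CPM in the BLM mice and at 2.66, 1.05 and 1.01 CPM in the BLM+HBO mice. For these genes every BLM+HBO mouse lay above every BLM mouse, and the log2 fold changes were 1.66 (SE 0.52, 95% interval 0.49 to 2.82) and 2.43 (SE 0.79, 95% interval 0.65 to 4.21). Klra7 (ENSMUSG00000067599.13, chromosome 6, 130218605 to 130233322), the inhibitory Ly49G, was at 0.22, 0.338, 0.275 and 1.53 CPM in the BLM mice and at 3.46, 0.814 and 1.5 CPM in the BLM+HBO mice. Klra3 (ENSMUSG00000067591.12, chromosome 6, 130323289 to 130337574), the inhibitory Ly49C, was at 0.22, 0.225, 0.439 and 0.948 CPM in the BLM mice and at 2.34, 0.67 and 0.787 CPM in the BLM+HBO mice. BLM 4 lay within the BLM+HBO range for both, and the log2 fold changes were 1.68 (SE 0.72, 95% interval 0.066 to 3.29) and 1.43 (SE 0.64, 95% interval 0.0029 to 2.86). Klra8 (ENSMUSG00000089727.2, chromosome 6, 130115226 to 130129898), the activating Ly49H that recognises a protein of mouse cytomegalovirus, was at 0.22, 0.395, 0.439 and 3.16 CPM in the BLM mice and at 4.53, 1.24 and 1.88 CPM in the BLM+HBO mice. BLM 4 lay above BLM+HBO 2 and BLM+HBO 3. The log2 fold change of 1.25 (SE 0.83, 95% interval -0.6 to 3.1) was not called, and 14.4% of its 100-base windows are shared with Klra9 and Klra14-ps.

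The other tested Ly49 genes are known from myeloid cells and plasmacytoid dendritic cells rather than from NK cells. Klra2, at 6.5, 7.67, 7.74 and 8.43 CPM in the BLM mice and at 16.6, 8.66 and 7.05 CPM in the BLM+HBO mice, was the Ly49 gene with the most reads, and its log2 fold change of 0.5 (SE 0.28, 95% interval -0.13 to 1.14) was not called. Klra17 was not called either, at 0.42 (SE 0.52, 95% interval -0.76 to 1.59). Klra1, Klra5, Klra6 and Klra10 did not reach 10 reads in 3 mice. Of these Klra1, which encodes Ly49A, had 0, 0, 0 and 1 reads in the BLM mice and 9, 9 and 17 reads in the BLM+HBO mice, so its groups did not overlap. Summed into 1 feature, which does not bring back any reads that the counting dropped in shared windows, the 11 Ly49 members had 147, 172, 196 and 324 reads in the BLM mice and 640, 313 and 393 in the BLM+HBO mice. The log2 fold change of the sum was 0.89 (SE 0.34, adjusted P = 0.438), and with the Ly49 pseudogenes added it was 1.03 (SE 0.4, adjusted P = 0.439). Of the reads of the 11 members, Klra2 alone gave 118, 136, 141 and 160 in the BLM mice. In the BLM+HBO mice it gave 312, 181 and 188, so the sum rests in large part on this gene.

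Among the remaining Klr receptors, Klre1 (ENSMUSG00000050241.8, chromosome 6, 129577905 to 129585827), which pairs with the Klri chains on NK cells, was at 0.881, 0.169, 0.878 and 1.37 CPM in the BLM mice and at 6.55, 1.72 and 1.46 CPM in the BLM+HBO mice. Its groups did not overlap, and its log2 fold change was 1.95 (SE 0.67, 95% interval 0.46 to 3.45). Its partners Klri1 and Klri2 were at 0.91 (SE 0.64, 95% interval -0.52 to 2.34) and 1.27 (SE 0.57, 95% interval -0.0055 to 2.56) and were not called. Klrg1 (ENSMUSG00000030114.8, chromosome 6, 122270596 to 122282882), an inhibitory receptor for cadherins found on mature NK cells, effector T cells and innate lymphocytes of the lung, was at 2.04, 1.63, 3.02 and 2.58 CPM in the BLM mice and at 4.79, 3.3 and 2.25 CPM in the BLM+HBO mice. BLM+HBO 1 was the highest mouse, the groups overlapped, and the log2 fold change of 0.56 (SE 0.34, 95% interval -0.19 to 1.32) was not called. Klrg2 was not called either, at 0.33 (SE 0.26, 95% interval -0.25 to 0.92).

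Both T-box factors that drive NK cell maturation and cytotoxic genes were called higher. Tbx21 (ENSMUSG00000001444.2, chromosome 11, 97098071 to 97115331), which encodes T-bet, was at 1.65, 0.789, 0.494 and 1.95 CPM in the BLM mice and at 5.7, 2.2 and 1.65 CPM in the BLM+HBO mice. BLM 4 lay above BLM+HBO 3, and the log2 fold change was 1.37 (SE 0.55, 95% interval 0.12 to 2.61). Eomes (ENSMUSG00000032446.14, chromosome 9, 118478212 to 118486132) was at 0.826, 0.789, 1.32 and 1.26 CPM in the BLM mice and at 3.78, 1.58 and 1.39 CPM in the BLM+HBO mice. Its groups did not overlap, and the log2 fold change was 1.08 (SE 0.43, 95% interval 0.12 to 2.05). Eomes was also the lowest of the called members by fold change.

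By role, the mean summed CPM was higher in BLM+HBO for every group of members in all 7 mice, from 1.51 times for Ncr1, Il2rb and Cd7 together to 3.36 times for the granzymes. The ratio was 2.45 for the CD94 and NKG2 receptors, 1.86 for the Ly49 receptors, 1.97 for the NKR-P1 receptors, 1.78 for the other Klr receptors, 2.44 for Prf1 and Nkg7, and 2.39 for the transcription factors. Without BLM+HBO 1 the ratio fell to 1.55 for the granzymes, below the 1.61 of the CD94 and NKG2 receptors, to 1.05 for Ncr1, Il2rb and Cd7, and to 0.740 for Fasl, which was 2.06 in all mice. Il2rb made up 14.2 of the 17.1 CPM of Ncr1, Il2rb and Cd7 in the BLM mean. Taken singly without BLM+HBO 1, the log2 fold change was 1.27 for Ncr1, 0.15 for Cd7 and -0.07 for Il2rb. Likewise, Klra2 made up 7.58 of the 11.4 CPM of the Ly49 receptors in the BLM mean. The 44 members together came to 72.5 ± 25.9 CPM in the BLM mice (SD, n = 4) and 154 ± 96.7 CPM in the BLM+HBO mice (SD, n = 3), a ratio of 2.12, or 1.94 without Gzma and 1.35 without BLM+HBO 1. The SD of the BLM+HBO sum was larger than the difference between the means. Not overlapping between groups, and higher in BLM+HBO, were 8 of the 32 members tested, against 4.05% of all genes tested. These were Klrd1, Klrk1, Klra4, Klra9, Klrb1c, Klre1, Prf1 and Eomes, so that 7 of the 15 called members had overlapping groups.

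The summed CPM by mouse was 55.5, 54.9, 69.7 and 110.0 in BLM 1 to BLM 4 and 265.4, 101.1 and 94.8 in BLM+HBO 1 to BLM+HBO 3. BLM 4 thus lay above BLM+HBO 2 and BLM+HBO 3 in the sum, and BLM+HBO 1 far above every other mouse. BLM+HBO 1 lay above all 4 BLM mice for 30 of the 32 members tested, against 27.1% of all genes. It was the highest of all mice for 29, against 20.6% of all genes, and the exceptions were Klrb1a, Klrg2 and Klri1. BLM 4 was the highest BLM mouse for 26 of the 32, against 21.9%, with Klrb1a, Gzmm, Gzmk, Klrg1, Klri1 and Eomes as exceptions. BLM 4 lay above both BLM+HBO 2 and BLM+HBO 3 for 15 of the 32, against 29.5%. When BLM 4 was set aside, BLM+HBO 2 lay above BLM 1, BLM 2 and BLM 3 for 26 of the 32, against 21.6%, and BLM+HBO 3 for 20, against 29.2%. Gzma also took a different share of the summed member CPM by mouse, with 3.77%, 4.0%, 6.06% and 9.62% in the BLM mice and 18.4%, 8.62% and 10% in the BLM+HBO mice.

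**Figure D3:**
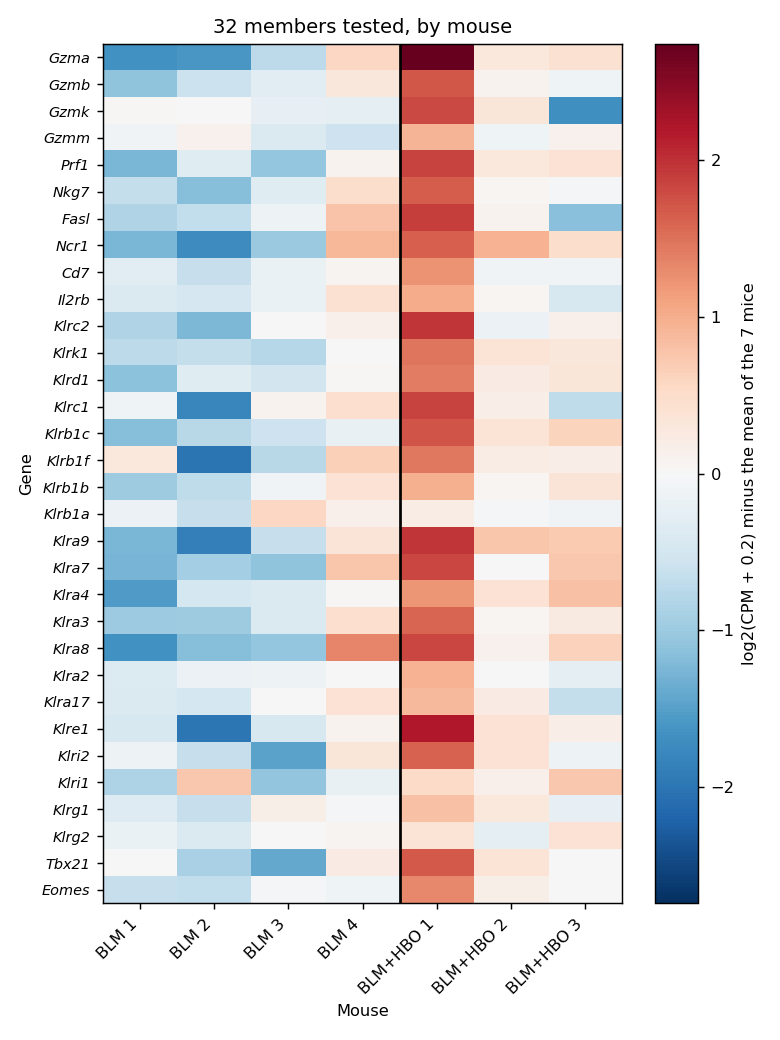
Each cell is log2(CPM + 0.2) of 1 of the 32 members tested (rows) in 1 mouse (columns), minus the mean of the 7 mice for that member. The column of BLM+HBO 1 is the highest for 29 of 32 members, and BLM 4 is the highest of the BLM columns for 26.

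The count of called members depended on BLM+HBO 1. Without that mouse 3 members were called higher, Klrk1, Klra4 and Klrb1c, against 1.93% of all genes, and 26 of the 32 had a log2 fold change above 0, with a median of 0.48 and a lowest adjusted P of 0.802. Gzma was then at 0.93, Prf1 at 0.95, Ncr1 at 1.27 and Klrb1c at 1.24, while Gzmk at -0.36, Fasl at -0.47 and Il2rb at -0.07 lay below 0. Without BLM 4 the count was 19, against 3.97% of all genes, and the median log2 fold change was 1.57. Leaving out BLM 1, BLM 2 or BLM 3 gave 9, 8 and 10 called members, beside 706, 864 and 1281 genes called in either direction. Leaving out BLM+HBO 2 gave 18, against 5.29% of all genes called higher. Leaving out BLM+HBO 3 gave 21, beside 881 genes called in either direction. The share of all genes called higher was not computed without BLM 1, BLM 2, BLM 3 or BLM+HBO 3. Klrk1, Klra4 and Klrb1c were the members called whichever of the 7 mice was left out. Of these, Klra4 had few reads in the BLM mice, at 2, 8, 9 and 14, and passed the filter through the BLM+HBO mice.

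**Figure D4:**
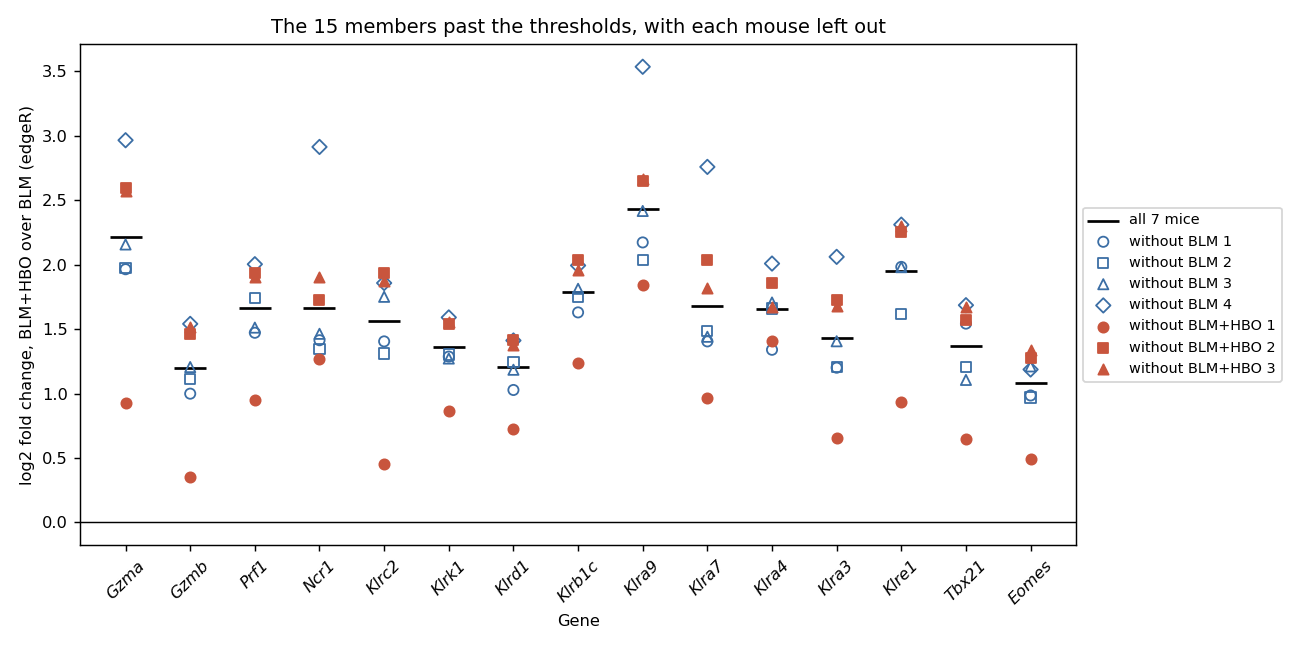
Log2 fold change of BLM+HBO over BLM (y axis) of the 15 called members (x axis) in all 7 mice (black lines) and with each mouse left out in turn (points). The value without BLM+HBO 1 is the lowest for all of them but Klra4, as for Gzma at 0.93 against 2.21 in all mice, and without BLM 4 Gzma rises to 2.97.

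Because the test needs reads, the members with few reads in the BLM mice could pass the filter only through the BLM+HBO mice. There were 7 members that had 10 reads in every BLM+HBO mouse and in at most 1 BLM mouse. Klrc2, Klra17, Klrb1f and Fasl also lacked 10 reads in 3 BLM mice. The 21 members with 10 reads in 3 or more BLM mice were free of this. Of them, 20 had a log2 fold change above 0, against 51.2% of all genes tested, and 9 were called higher, against 3.40%. Their median was 1.08. The share among all genes with as many reads in the BLM mice was not computed. The called members outside these 21 were Ncr1, Klrc2, Klra3, Klra4, Klra7 and Klra9, so their calls rest on genes that passed the filter through the BLM+HBO mice. Per kilobase of exon, over all 7 mice, Gzma had the highest mean level at 12.2 CPM per kb, followed by Nkg7 at 8.01, Klrd1 at 4.97, Klra2 at 4.71 and Il2rb at 3.85. Klrc2 was the lowest member tested, at 0.217 CPM per kb. On this scale Gzma was at 4.75 in BLM, below Nkg7 at 5.34, and at 22.2 in BLM+HBO, above Nkg7 at 11.6.

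In the genome, 24 of the 26 Klr members lie in the NK gene complex on chromosome 6 (128609227 to 131247362, 2.64 Mb), with Klrg1 and Klrg2 elsewhere on that chromosome. Of these 24, 18 were tested, with a median of 1.26. Of the 18, 17 had a log2 fold change above 0, against 51.2% of all genes tested, and 9 were called higher, against 3.40%. Among the 9, Klrc2, Klra3, Klra4, Klra7 and Klra9 passed the filter through the BLM+HBO mice. Without BLM+HBO 1 only Klrk1, Klra4 and Klrb1c stayed called. The 12 other protein-coding genes tested in the same interval had a median of 0.39, with 4 called higher and 1 lower, against 3.40% and 2.89% of all genes. The 4 were BC035044 at 1.83, Clec2i at 1.05, Clec1b at 0.62 and Clec9a at 0.66. Clec2e was lower, at -1.37. Clec2i encodes a ligand of the NKR-P1 receptors, and it was at 4.18, 3.78, 4.01 and 6.42 CPM in the BLM mice and at 15.1, 7.04 and 6.45 CPM in the BLM+HBO mice, with no overlap between the groups. Without BLM+HBO 1 its log2 fold change was 0.55 and it was not called.

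Lists of other genes of the pathway give the context of these values. Of 30 tested NK and cytotoxic lymphocyte genes outside the rule, 20 had a log2 fold change above 0, 7 were called higher and 2 lower, with a median of 0.31 and a summed level of 915 to 1159 CPM in the BLM mice and 929 to 1276 CPM in the BLM+HBO mice. Higher were among others Ccl5, a chemokine of activated cytotoxic lymphocytes, at 1.49 (SE 0.5, 95% interval 0.37 to 2.6), Sh2d1a, an adaptor of activating receptors, at 1.26 (SE 0.43, 95% interval 0.3 to 2.23), and Cd226, an activating receptor, at 0.95 (SE 0.33, 95% interval 0.21 to 1.69). Without BLM+HBO 1 they were at 0.61, 0.82 and 0.47, and 0 of the 30 genes were called higher. Lower were Fcgr3, the Fc receptor for antibody-dependent killing that macrophages also carry, at -0.77 (SE 0.2, 95% interval -1.23 to -0.31), and Nfil3, a factor for NK cell development that other cells also express, at -0.87 (SE 0.26, 95% interval -1.45 to -0.29), and both were also called lower without BLM+HBO 1. Among 12 adaptor and signalling genes of the receptors 1 was called, Cd247, the zeta chain, at 0.62 (SE 0.27, 95% interval 0.018 to 1.22), with a list median of -0.10, and without BLM+HBO 1 it was at 0.24 and not called. Of the 12 genes of granule loading and release, such as Lamp1 (-0.1), Ctsc (-0.14), which activates granzymes, and Srgn (-0.02), which packs them, 6 were above 0 and 0 were called. The 9 granzyme inhibitors and death receptors, with Serpinb9, Serpinb6a and Serpinb6b the most abundant (log2 fold changes -0.07, -0.25 and -0.08), had 3 above 0 and 0 called. Of 17 tested ligands of the NK receptors, Clec2i was called higher and Clec2e lower, and of 9 tested cytokines that act on NK cells, such as Tgfb1 (-0.3), Cx3cl1 (0.34) and Cxcl10 (-0.29), 0 were called. Many genes of these lists are expressed by most lung cells.

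Markers of other cells that carry these genes moved in part with the members, and their part in the result was not tested. All 16 tested T cell markers had a log2 fold change above 0, with a median of 0.47, and 2 were called, Trbc2 at 0.89 and Trbc1 at 0.8, which encode the constant region of the T cell receptor beta chain. Without BLM+HBO 1, 9 of the 16 were above 0, with a median of 0.058, and 0 were called, with Trbc2 at 0.42 and Trbc1 at 0.47. The summed level of the list was 110.5 to 168 CPM in the BLM mice and 122 to 255 CPM in the BLM+HBO mice. The ratio of the summed members to this sum was 0.477, 0.497, 0.574 and 0.656 in the BLM mice and 1.04, 0.657 and 0.775 in the BLM+HBO mice, so every BLM+HBO mouse lay at or above BLM 4. The ratio of Ncr1 to Cd3e, which encodes a CD3 subunit of the T cell receptor complex, was 0.0648, 0.0482, 0.0849 and 0.309 in the BLM mice and 0.369, 0.379 and 0.359 in the BLM+HBO mice. The groups did not separate in this way over every marker of the list. Trbc2 was at 10.11 CPM in BLM 4 and at 26.56, 14.55 and 10.09 CPM in the BLM+HBO mice, and the ratio of Ncr1 to Trbc2 was highest in BLM 4. Gamma delta and innate-like T cell markers had 8 of 8 above 0, 1 called (Blk, 1.0, and 0.57 and not called without BLM+HBO 1) and a median of 0.56, with a summed level of 97.9 to 146 CPM in the BLM mice and 139.9 to 174 CPM in the BLM+HBO mice. ILC2 markers had 3 of 7 above 0, with Gata3 called higher at 0.67 and Arg1 lower at -2.75. Without BLM+HBO 1 Gata3 was at 0.64 and not called, and Arg1 was at -2.38 and still called. Arg1 alone was at 45.1 to 130 CPM in the BLM mice, where the ILC2 list summed to 159 to 247 CPM. Whether ILC2 or other cells gave these Arg1 reads was not tested. No marker of these lists had 0 reads in all mice.

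**Figure D5:**
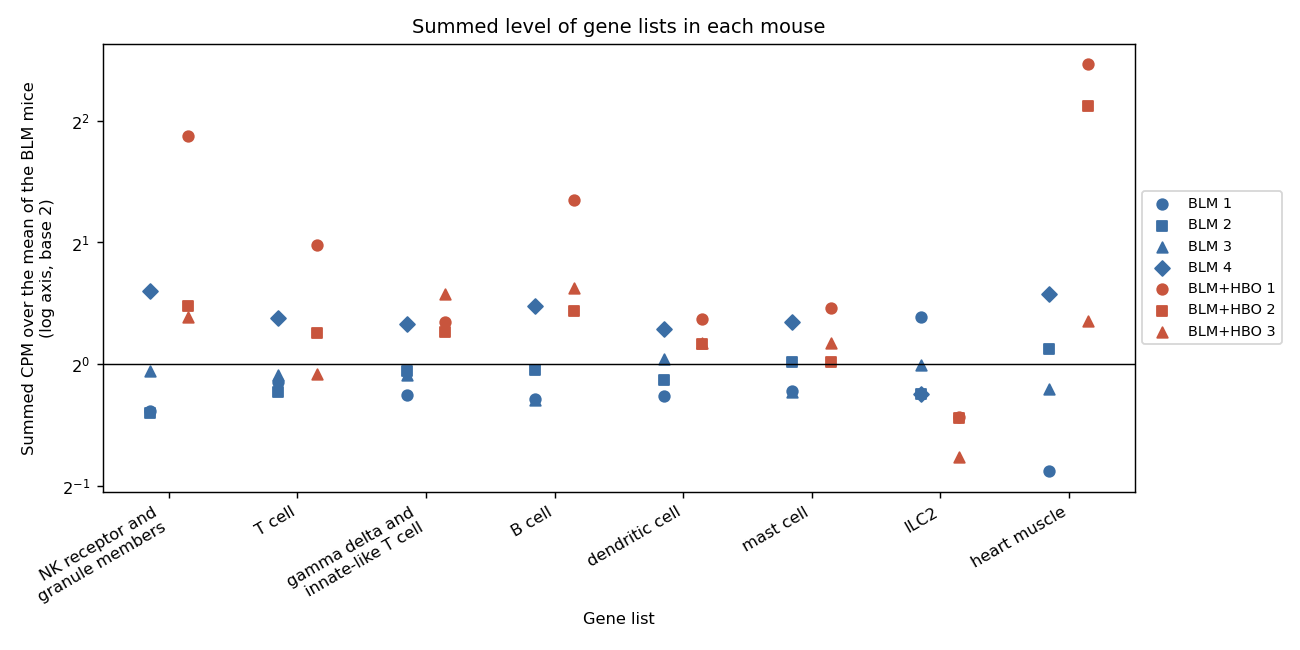
Summed CPM of the 44 members and of 7 marker lists (x axis) in each mouse, divided by the mean of the 4 BLM mice (y axis, log scale of base 2), with BLM mice in blue and BLM+HBO mice in red. The members sum to 54.9 to 110.0 CPM in BLM and 94.8 to 265.4 CPM in BLM+HBO, and BLM+HBO 1 is the highest mouse for the members, the T cell list (254.9 CPM) and the B cell list (282.7 CPM).

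Other marker lists also differed between the groups, and their part in the result was not tested. B cell markers had 8 of 8 above 0, 6 called higher (among them Pax5, Fcmr, Cd79a and Cd79b, at 0.9 to 1.23) and a median of 0.98, with a summed level of 90.5 to 155 CPM in the BLM mice and 149.8 to 283 CPM in the BLM+HBO mice and the highest values in BLM 4 and BLM+HBO 1, the mice that led the members in their groups. Without BLM+HBO 1, 2 of the 8 were called and the median was 0.55. Heart muscle markers had 12 of 12 above 0, 11 called higher (Mb, Actc1, Ttn, Myh6 and Myl4 first, at 1.73 to 3.61) and a median of 1.72, with a summed level of 75.2 to 207 CPM in the BLM mice and 177 to 762 CPM in the BLM+HBO mice, and without BLM+HBO 1 there were 6 called and a median of 1.34. Dendritic cell markers had 8 of 8 above 0 and 3 called higher, Clec9a, Cd209a and Siglech (0.66 to 1.29), with a median of 0.44, and 1 was called without BLM+HBO 1. Fibroblast and matrix markers had 0 of 8 above 0 and 5 called lower, Lum, Col1a1, Dcn, Col3a1 and Col1a2 (-1.2 to -0.73), with a median of -0.86, a summed level of 9499 to 15230.0 CPM in the BLM mice and 2716 to 10310.0 CPM in the BLM+HBO mice, and their lowest sum in BLM+HBO 1, without which 2 were called lower. Alveolar macrophage markers had 5 of 8 above 0 and a median of 0.18, with Krt79 called higher at 2.09 and Marco, Mrc1 and Chil3 lower at -2.06, -0.84 and -1.06. Krt79 had 236 reads in BLM+HBO 3 and 9 to 42 in the other mice, and without that mouse its log2 fold change was 0.72. Proliferating cell markers had 0 of 8 above 0 and 1 called lower (Ccnb1, -0.66). Of the mast cell (Kit, Cpa3 and Mcpt4), neutrophil (S100a9, Csf3r and S100a8) and endothelial (Cdh5, Pecam1 and Cldn5) lists 0 genes were called in all mice, and of the alveolar epithelial list 1, Sftpa1, at 0.79. Kit alone made up 145.5 of the 150.6 CPM of the mast cell sum in BLM 1. The neutrophil sum was 520.3 CPM in BLM+HBO 1, against 110.1 and 120.1 CPM in the other BLM+HBO mice and 182 to 239 CPM in the BLM mice, so the mouse that led the members also stood apart in these markers. S100a9 alone was at 210.0 CPM there and at 26.4 and 37.8 CPM in the other BLM+HBO mice. Without BLM+HBO 1 all 7 tested neutrophil markers were called lower, with a median of -0.87.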

How the data were processed

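RNA was sequenced from the lung of 7 mice. Per the supplementary methods and the sample records, the authors trimmed the reads, mapped them to GRCm38 with HISAT2 2.2.0 and counted them with featureCounts at its defaults, which ignore strand and drop multi-mapping reads and reads in more than 1 gene. The featureCounts version is 2.2.0 in the sample records, while the supplementary methods give a different version, and which was used was not settled here. The annotation release is not given in the sources used here. The deposited values were raw read counts per gene, without normalization. Symbols came from GENCODE vM21 for 55141 of 55401 genes, 54349 in the same version.

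Each mouse was 1 replicate, as grouped by the sample titles, and P-values measure the spread between these mice. Replicate libraries differed by more than the sampling noise (chi-square per gene of 22.1 to 64.3). Low counts were removed by filterByExpr (minimum count 10, minimum total 15), and the rest scaled by TMM (factors 0.964 to 1.04) and tested two-sided with edgeR 4.0.16 (glmQLFit, not robust, common biological coefficient of variation 0.222) under R 4.3.3, with Benjamini-Hochberg adjustment over all 17465 genes tested. SE is the log2 fold change over the root of F. Intervals are at 95%. The study used DESeq2, which was run here as an alternative (1.42.0), with limma-trend 3.58.1 and other filters, factors, thresholds and left-out mice. A floor of 3 reads was used for counts of 0 and covers counting error only. The scripts were tested on simulated data.

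The members and lists were chosen with earlier results of these data known. Values in every mouse are given for each called member and a core of 16, other members by range, and from each list the called genes, up to 5 by P, or up to 3 by level. A marker gene that this rule would name is not reported here. Klra1, Klra2, the pseudogenes and the neighbours in the NK gene complex were added after their values were seen. Motifs were searched in RefSeq windows of GRCm38.p6.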

Additional observations from a re-analysis of the deposited data

Results flagged for a closer look

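Of 53 groups of 4 values examined, 2 had a mouse apart from the others by Dixon's 95% criterion, where chance gives about 1 in 20. Klrk1 in the BLM group had a ratio of gap to range of 0.857, since BLM 4 stood at 2.37 log2 CPM and the other BLM mice between 1.56 and 1.68. The total reads of the BLM group had a ratio of 0.971, since BLM 4 had 19002242 reads and the others 18436336 to 18452895.

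Reads were also found for genes of the same names that are not protein-coding and so were no members. The pseudogene Klra13-ps had 436 reads over the 7 mice, at 0.386, 0.451, 0.824 and 4.58 CPM in the BLM mice and at 9.74, 2.44 and 3.19 CPM in the BLM+HBO mice. Its log2 fold change was 1.7 (SE 0.82, 95% interval -0.15 to 3.54), and BLM 4 lay within the BLM+HBO range. Klra14-ps had 80 reads, with a log2 fold change of 1.25 (SE 0.9, 95% interval -0.77 to 3.27).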

How the results depend on the processing

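Over all genes, 1098 were called, against 1940 without a filter on low counts, 509 at a fold change above 2 and 319 at a P below 0.01. The members called higher were 15, against 4 at a P below 0.01. Leaving out each mouse in turn gave 659 to 1914 genes, 3 to 21 members and a median log2 fold change of the members of 0.48 to 1.57. The members called lower were 0 in all settings run. Over the left-out mice, Fasl ran from -0.47 to 1.61, Gzmk from -0.36 to 1.56 and Il2rb from -0.067 to 0.73, and all 3 were below 0 only without BLM+HBO 1. By edgeR at an adjusted P below 0.05, 387 genes and 7 members (Gzma, Prf1, Klrd1, Klrk1, Klrb1c, Klre1 and Klra1) were called without a filter and 267 genes and 1 member (Klrb1c) without BLM+HBO 2, against 0 in all mice with the filter. DESeq2 in all mice with the filter gave 123 genes and 2 members, Klrb1c and Klrk1. Of 365 values of 22 named members under 17 settings, 307 kept direction and side of the thresholds, 39 lost and 16 gained the call, and 3 turned. RLE or upper-quartile factors gave 14 and 17 members. Summing the Ly49 and the Klrc members, chosen after seeing the data, gave 11 of 25.

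Replicate numbers did not pair the mice, with correlations of deviations of -0.00797, -0.066 and 0.161 for equal numbers. With a replicate block 17 members and 1258 genes were called, and the median was 1.33. BLM 4 has no BLM+HBO mouse of its number, so in this fit it adds nothing to the difference between the groups. The block fit is thus close to the setting without BLM 4, with 19 members and a median of 1.57, and is no check on all 7 mice.

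Filters, thresholds and fewer mice change counts by construction, and no other cause of these shifts was tested. The 12 members under 10 reads in 3 mice were too low to test with the filter, and whether depth or lack of expression was the reason was not tested.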
